A study of Mus musculus with 73 samples.

Results

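Treml4, Ace, Cd300e, Spn, Eno3, Emr4 and Nr4a1 are 7 genes linked in mice to non-classical monocytes, and they were read out of 23994 gene rows in 73 single cells from 1 mouse. The genes were named in advance of this description with earlier results of these data known, and all 7 had a row in the table and passed detection in at least 4 cells. The cells came from the right lung lobes of a 10 week adult Csf1r-GFP mouse on a B6 background, 7 days after surgery that took out the left lung. The reporter marks cells in which the Csf1r gene, coding for the receptor of macrophage colony-stimulating factor, is active. The sort is given as positive for CD45, CSF1R-GFP and F4/80, with Ly6G named without a sign. All 73 cells formed 1 group, so the values describe differences between cells of a lung after pneumonectomy, and cells of an unoperated lung were not analysed here. Cells of 1 mouse are not replicates of a condition, so no p-value was computed, and intervals on shares are exact Clopper-Pearson 95% intervals that cover counting error only. Where 0 cells held a gene, 3 cells as a percentage of those examined is printed as the limit, not an exact interval.

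Non-classical monocytes of mice, low in the surface protein Ly6C, crawl along the inner wall of blood vessels and scavenge debris there. They mature from classical monocytes, which carry Ly6C and Ccr2 and enter inflamed tissue, and this maturation requires the nuclear receptor Nr4a1. Nr4a1 is also an immediate early gene, switched on within a short time by many signals in many cell types. Treml4 is a receptor of the TREM family that binds dead cells, Cd300e an activating receptor of myeloid cells, and Emr4, now called Adgre4, an adhesion receptor related to F4/80. Spn codes for the sialomucin CD43. Ace codes for angiotensin-converting enzyme, which lung endothelium also makes in quantity, and Eno3 for the enolase best known from muscle. Cdh5 (VE-cadherin, of junctions between endothelial cells), Cldn5 (a claudin of their tight junctions) and Ramp2 (partner of the adrenomedullin receptor) were used to set endothelial transcripts apart.

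Levels are FPKM as deposited, which scale fragments by transcript length and by the total of the cell, and a gene was called detected in a cell at FPKM of 1 or more. An estimated 347003 to 3485924 mouse fragments stood behind each cell (median 1408835), and 1044 to 3745 genes were detected per cell (median 2290). Transcripts of the sort genes were not detected in every cell, with Ptprc (the CD45 gene) in 69 of 73, Csf1r in 65 and Emr1 (the F4/80 gene) in 41. Cell 2 had FPKM of 0 for Ptprc and for Csf1r and 0.56 for the lysozyme gene Lyz2. Cell 54 had 3.63, 0 and 877 for the same genes. Cell 48 held Sftpc, a surfactant gene of the alveolar epithelium, at 464.

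In mm10, Treml4 lies on chromosome 17 from 48264200 to 48275607 and Emr4 on the same chromosome from 55749984 to 55853662. Chromosome 11 holds Eno3 (70653125 to 70662513), Ace (105967948 to 105989964) and Cd300e (115051917 to 115066676). Spn lies on chromosome 7 from 127123637 to 127145552 and Nr4a1 on chromosome 15 from 101253902 to 101274795. All 7 are annotated as protein-coding. The 250 bases before the RefSeq start (GRCm38.p6) are shown for Nr4a1, the member found in most cells, and for Treml4 and Spn, the members found in all 5 cells described below, with each CG dinucleotide in capitals. The RefSeq starts used lie inside the gene spans given above, so these are windows of 1 transcript start each.
Nr4a1, chr15:101266596-101266845, plus strand: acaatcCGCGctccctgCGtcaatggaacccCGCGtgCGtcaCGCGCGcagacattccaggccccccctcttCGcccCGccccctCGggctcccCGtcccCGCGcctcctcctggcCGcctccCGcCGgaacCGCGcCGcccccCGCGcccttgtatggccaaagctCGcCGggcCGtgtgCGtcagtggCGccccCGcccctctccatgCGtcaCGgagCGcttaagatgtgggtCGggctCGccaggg
Treml4, chr17:48264045-48264294, plus strand: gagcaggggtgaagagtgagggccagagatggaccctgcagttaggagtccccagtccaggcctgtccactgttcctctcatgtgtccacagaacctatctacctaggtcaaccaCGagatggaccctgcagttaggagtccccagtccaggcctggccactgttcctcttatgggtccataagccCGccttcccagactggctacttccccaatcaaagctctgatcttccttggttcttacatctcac
Spn, chr7:127137824-127138073, minus strand: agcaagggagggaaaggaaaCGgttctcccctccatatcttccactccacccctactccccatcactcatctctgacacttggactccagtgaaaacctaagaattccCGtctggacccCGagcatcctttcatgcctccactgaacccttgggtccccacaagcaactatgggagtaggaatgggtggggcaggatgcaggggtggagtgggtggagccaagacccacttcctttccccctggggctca
The Nr4a1 window held 34 CG dinucleotides and 74.4% G and C, above the G and C content of 95.4% of the 32851 promoter windows in the table. Treml4 had 2 and Spn 3 CG dinucleotides, with 55.6% and 56.8% G and C, against medians of 6 and 52.4% over all windows. In the windows of the other members, 1 to 6 CG dinucleotides were counted, except for 19 in the first of the Ace windows. Over 300 bases, from 250 before to 50 after the start, the Nr4a1 response element AAAGGTCA was found on either strand in 0 of 7 members and in 1.51% of all promoters. The cyclic AMP response element TGACGTCA was likewise found in 0 of 7 members and in 1.79% of promoters. The ETS core AGGAAGT was found in 3 of 7, Cd300e, Spn and Emr4, and in 9.35% of promoters. In Spn it lay on the opposite strand with its first base at position -23 from the start. With no match of the other motifs, no matches overlapped, and a match is a description only.

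Of the receptors, Treml4 was detected in 13 of 73 cells (17.8%, 9.84 to 28.5), Emr4 in 11 (15.1%, 7.77 to 25.4) and Cd300e in 4 (5.48%, 1.51 to 13.4). Among the cells with a detected transcript, Treml4 ran from 5.94 to 730 FPKM with a median of 96.2, and Emr4 from 1.58 to 359 with a median of 64.5. Cd300e ran from 2.38 to 178 in its 4 cells. The sialomucin gene Spn was detected in 14 cells (19.2%, 10.9 to 30.1), from 1.296 to 194 FPKM. Of the enzymes, Ace was detected in 8 cells (10.96%, 4.85 to 20.5), from 8.27 to 247 FPKM, and Eno3 in 6 (8.22%, 3.08 to 17.04), from 1.65 to 152 FPKM. Nr4a1 stood apart from the other 6 with detection in 55 cells (75.3%, 63.9 to 84.7), from 1.36 to 602 FPKM with a median of 82.96. Its label as a non-classical monocyte gene therefore did not pick out few cells here.

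**Figure D1:**
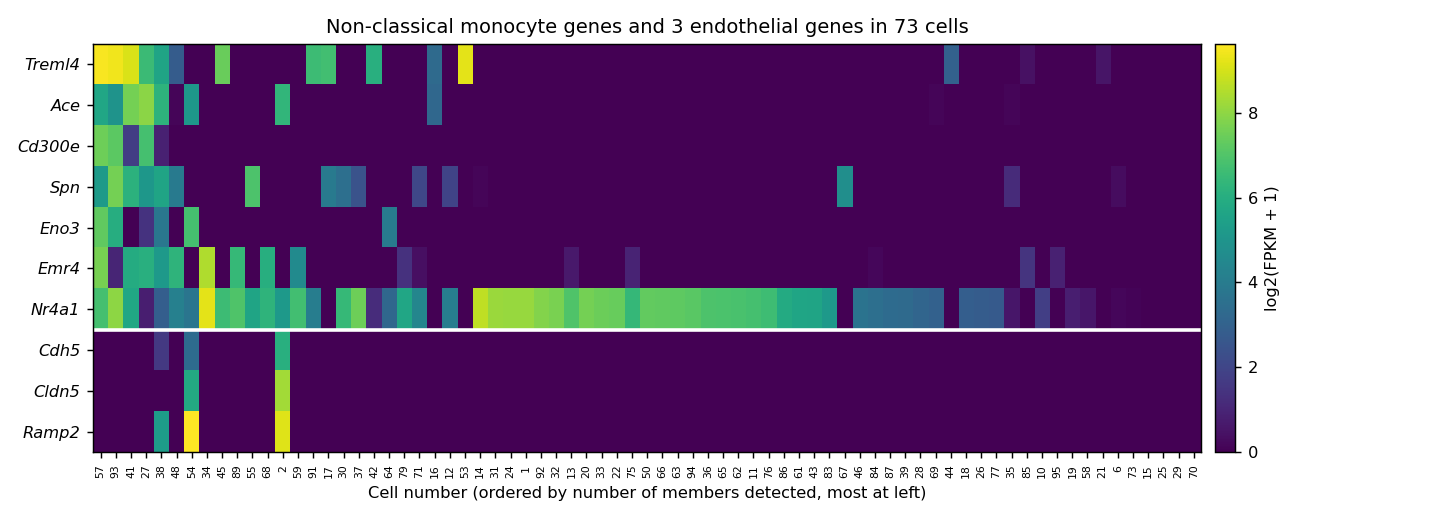
Levels of the 7 members (upper rows) and of the 3 endothelial genes (lower rows) as log2(FPKM + 1), colour-coded, in each of 73 cells, ordered with the cells holding most members at the left. Cells 57, 93, 41, 27 and 38 hold at least 6 members, Nr4a1 continues across most cells, and the endothelial genes are found in cells 38, 54 and 2 alone.

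Most cells held none of the other 6 genes. No member was detected in 10 cells and only Nr4a1 in a further 34, so that 44 cells (60.3%, 48.1 to 71.5) fell outside the remaining set. In 17 cells 2 members were detected, 1 of them Nr4a1 in 15. Between these and the cells with most members lay 1 cell with 3 members (cell 54), 1 with 4 (cell 48) and 0 with 5. At the upper end, 4 cells held 6 members (27, 38, 41 and 93) and 1 cell held all 7 (cell 57). Taken at 3 or more, 7 cells held several members (9.59%, 3.94 to 18.8). Cd300e went with the others most closely, since all 4 of its cells also held Treml4, Ace and Spn, which makes 30.8% of the Treml4 cells, 50% of the Ace cells and 28.6% of the Spn cells.

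Endothelial transcripts separated 2 of these 7 cells. At least 2 of Cdh5, Cldn5 and Ramp2 were detected in cells 2, 38 and 54 (4.11% of cells, 0.856 to 11.5), and all 3 genes were at 0 in cells 27, 41, 48, 57 and 93. Cell 54 had FPKM of 9.32 for Cdh5, 56.7 for Cldn5 and 786 for Ramp2, and its 3 members were Ace at 33.02, Eno3 at 108 and Nr4a1 at 12.4. Cell 2 had 66.7, 307 and 564 for the same endothelial genes and held Ace at 80.6 and Nr4a1 at 35.98. Treml4, Cd300e, Spn and Emr4 were at 0 in both. Cell 54 also held 9 of 12 classical monocyte genes and 10 of 21 further non-classical monocyte genes, with Plac8 at 689 and Gngt2 at 512, while cell 2 held 2 and 3. Cells 54 and 2 also held 15 and 11 of 20 further endothelial genes, among them Tmem100 at 425 and 1245 FPKM and Calcrl, the receptor that Ramp2 partners, at 490 and 1841. Ace was thus detected in 3 of 3 cells with endothelial transcripts, and without Treml4 or Spn in 2 of them.

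Cell 38 held both kinds of transcript. Its endothelial genes were lower, with Ramp2 at 39.2, Cdh5 at 2.05 and Cldn5 at 0, and 8 of the 20 further endothelial genes were detected, Calcrl at 621 and Cav1 at 372. Its members were Ace at 72.7, Treml4 at 48.1, Spn at 47.9, Emr4 at 35.6, Eno3 at 13.004 and Nr4a1 at 6.33, with Cd300e at 0.85 on 6 fragments. It also held 9 of 12 classical monocyte genes and the complement genes C1qb at 488 and C1qc at 210, which mark interstitial macrophages. Whether more than 1 cell contributed was not tested. With FPKM of 10 as the threshold, or with all 3 endothelial genes required, cell 38 moved to the cells without endothelial transcripts, which then numbered 6.

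The 5 remaining cells (6.85%, 2.26 to 15.3) were unequal in their members. Treml4 was at 92.2 FPKM in cell 27, 533 in cell 41, 5.94 in cell 48, 730 in cell 57 and 676 in cell 93. No other member passed 255 in these cells. Cd300e was at 110, 2.38, 0, 178 and 145 in the same order of cells, and the value in cell 41 rested on 3 fragments. Emr4 was at 66.5, 59.3, 75.5, 199 and 0.98. Cell 93, with the lowest Emr4 of the 5, thus had the second-highest Treml4. Spn was at 33.3, 71.7, 14.8, 36.7 and 194 FPKM, and was the member besides Treml4 detected in all 5. Ace was at 247, 196, 0.10, 51.1 and 29.8, and cell 27, with the highest Ace, had the lowest Treml4 of the 4 cells that held both. Eno3 was at 1.65 on 5 fragments in cell 27, at 152 in cell 57 and at 62.5 in cell 93, and at 0 in cells 41 and 48. Nr4a1 was at 0.75, 51.5, 17.4, 110 and 255. The ranges in the 5 cells overlapped those in the other 68 for every member, although Cd300e was above 0 in cell 38 alone of the 68.

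Cell 48 differed from the other 4. It held 4 members, with Emr4 at 75.5 the highest and Ace and Cd300e not detected, and 11 of 12 classical monocyte genes, among them Ccr2 at 304 and Ly6c2 at 263 FPKM. In cells 27, 41, 57 and 93, Ly6c2 ran from 0 to 0.64 and Ccr2 from 0 to 0.53. Cell 48 also held 2 of 7 alveolar epithelial genes, Sftpc at 464 and Ager at 18.996. Sftpc was at 188 in cell 57 and at 0 in the other 3. Cell 41 was the shallowest of the 5, with 458439 mouse fragments and 1295 genes, and it held Egfl7 at 773 and Cav1 at 455, 2 of the 20 further endothelial genes, with the 3 rule genes at 0. Mouse fragments per spike-in fragment were 0.563 in cell 27, 0.517 in cell 41, 2.095 in cell 48, 1.36 in cell 57 and 1.18 in cell 93, against a median of 1.73 over all cells, so that 4 of the 5 lay below it. The part of these values in the member levels was not tested.

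Outside the 7 cells with several members, 22 cells held at least 1 of the 6 members other than Nr4a1, and 20 of these held exactly 1. The exceptions were cell 16, with Treml4 and Ace, and cell 17, with Treml4 and Spn. Treml4 was detected in 7 of 66 cells, from 7.03 FPKM in cell 44 to 592 in cell 53. Cell 53, within the range of the 5 cells for Treml4, held no other member, Nr4a1 included, and 10 of 12 classical monocyte genes. Emr4 was detected in 6 of the 66 cells, with 359 in cell 34, above all 5 of the several-member cells. Spn was detected in 8, with 122 in cell 55. Ace was found in cells 2 and 16 alone, at 80.6 and 8.27, and Eno3 in cell 64 alone, at 15.02. Cd300e was detected in 0 of the 66, where 3 cells would make 4.55%.

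The members were also counted in cells with markers of other lung phagocytes, in groups cut after the values were seen. At least 7 of 12 classical monocyte genes, with fewer than 7 alveolar macrophage genes, were detected in 41 cells, of which 38 did not hold several members. Of these 38, Treml4 was detected in 5 (13.2%, 4.41 to 28.1), Spn in 4, Emr4 in 4, Ace in 1 and Nr4a1 in 32 (84.2%, 68.7 to 93.98). Cd300e and Eno3 were detected in 0 of the 38, where 3 cells would make 7.89%. The cells taken out were chosen by the members themselves, which lowers these counts. In all 41, Treml4 was detected in 7, Spn and Emr4 in 6 each, Ace in 3, Eno3 in 2 and Nr4a1 in 35. Cd300e was detected in 0 of the 41, where 3 cells would make 7.32%. At least 7 of 14 alveolar macrophage genes were detected in 16 cells. There Nr4a1 was found in 8 (50%, 24.7 to 75.3), Spn in 4, Treml4 in 2, and Eno3 and Emr4 in 1 each. Ace and Cd300e were found in 0 of the 16, where 3 cells would make 18.75%. At least 2 of the 3 C1q chains were detected in 10 cells. Of these, Nr4a1 was detected in 8, Spn in 2 and each of Treml4, Ace, Eno3 and Emr4 in 1, which for these 4 genes was cell 38. Cd300e was detected in 0 of the 10, where 3 cells would make 30%. Cell 38 was left in this group, and 2 of the 10 cells also met the classical cut, cell 38 among them. The intervals of the 3 groups overlapped for every member. Near the cuts, 0 cells held 5 or 6 alveolar macrophage genes, 2 held 6 classical monocyte genes and 0 held 7.

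**Figure D2:**
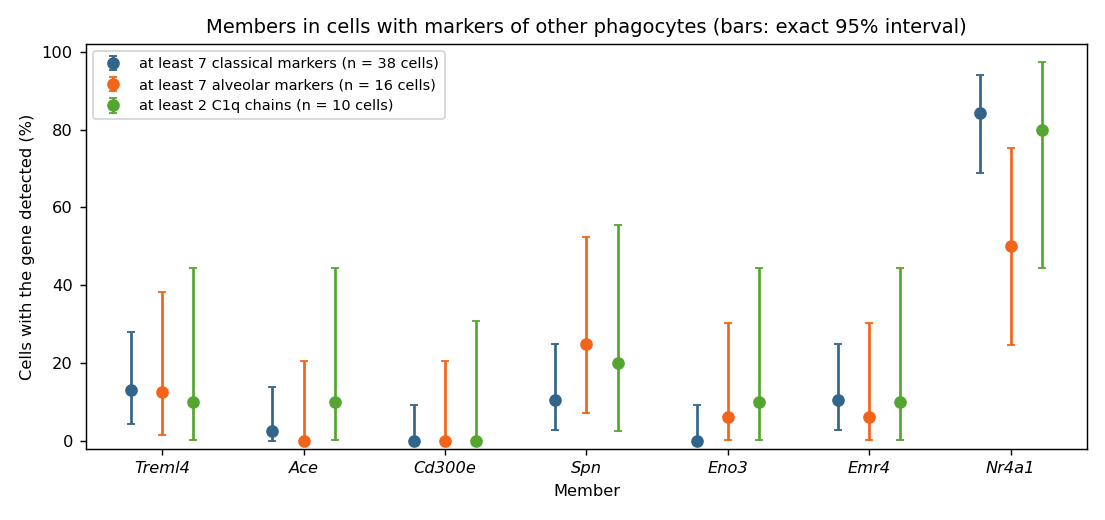
Percentage of cells with each member detected in 38 cells with at least 7 classical monocyte markers and without several members, 16 cells with at least 7 alveolar macrophage markers and 10 cells with at least 2 C1q chains, with exact 95% intervals as bars. Nr4a1 is found in 84.2%, 50% and 80% of the cells, while the other members stay at or below 25%. The classical cells also held fewer than 7 alveolar macrophage markers. Cells with several members, cell 38 among them, were taken out of the classical group by the same genes that are plotted. Cell 38 stays in the C1q group.

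Genes outside the 7 were then compared between the 5 cells and the other 68. A list of 21 further genes linked to non-classical monocytes had a median of 14 genes detected in the 5 cells (13 to 18) and of 9 in the other 68 (3 to 15). With every cell thinned to 347003 mouse fragments, a gene was counted at 3 or more fragments in place of the FPKM limit. The medians were then 15 in the 5 cells (13 to 17) and 8 in the others (3 to 14). The difference of medians was 5 by FPKM, 6 by fragments without thinning and 7 after thinning, so the change of limit has a part in it. Detection over all genes went the other way, with medians of 1875 genes in the 5 cells and 2312 in the others. Besides cell 38, with 15, 2 of the other cells reached 13 genes of the list and 0 reached 16, whereas cells 57 and 93 held 18 and 16. The summed FPKM of the list ran from 1131 to 12349 in the 5 cells and from 183 to 5997 in the others, so the ranges overlapped.

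**Figure D3:**
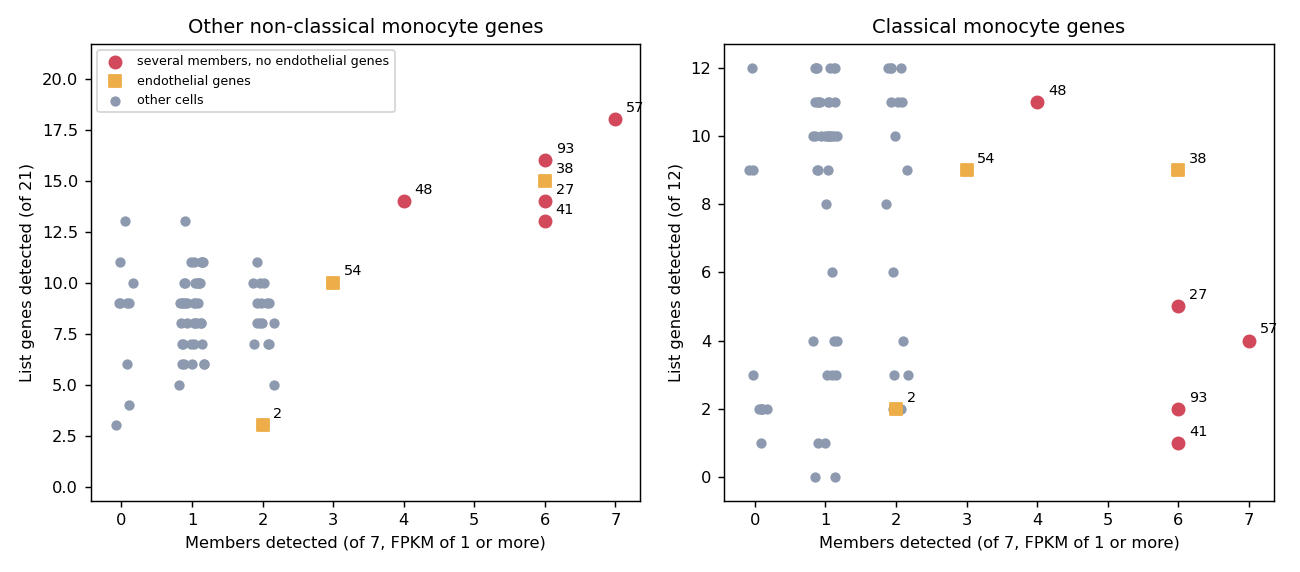
Number of other non-classical monocyte genes (left, of 21) and of classical monocyte genes (right, of 12) detected in each cell, against the number of members detected on the horizontal axis. Points of other cells are spread sideways for visibility. Cells 27, 41, 57 and 93 hold 13 to 18 of the first list and 1 to 5 of the second, and cell 48 holds 14 and 11.

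Among these genes, Gngt2, a G protein subunit, was at 1867, 1989, 463, 826 and 1203 FPKM in cells 27, 41, 48, 57 and 93, and had a median of 93.4 in the other 68 cells, 51 of which held it. Apoc2, an apolipoprotein that activates lipoprotein lipase, was at 669, 221, 102.5, 334 and 180 in the 5 cells, and was detected in 27 of the other 68 with a median of 0. Clec4a3 and Clec4a1, C-type lectin receptors, had medians of 206 and 442 in the 5 cells, and of 93.99 and 18.8 in the others. Ear2, an eosinophil-associated ribonuclease that alveolar macrophages also make, was at 741, 1161, 0, 216 and 1115, and was detected in 24 of the others with up to 3599. Pglyrp1, which binds peptidoglycan, was at 63.97, 2427, 0, 576 and 16.6, and was detected in 7 of the other 68 cells. Cebpb, a transcription factor on which these monocytes depend in mice, had a median of 124 in the 5 cells and 47.2 in the others, and was detected in 65 of the others. Fcgr4, an activating IgG receptor, was at 95.6, 1460, 0, 535 and 0, and was detected in 19 of the others. Its mean log2(FPKM + 1) was higher by 3.64 in the 5 cells. Not every gene of the list followed. That mean was lower in the 5 cells for Cd274 (-0.63) and Itgax (-0.11), and higher by 0.15 for Bcl2. Cd274 was detected in 1 of the 5 cells and 21 of the others. Cx3cr1, the fractalkine receptor by which these monocytes are often recognised, was at 0.73, 0.40, 4.996, 15.3 and 73.3, against a median of 0.58 and a highest value of 498 in the others. Itgax was detected in cell 93 alone of the 5.

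**Figure D4:**
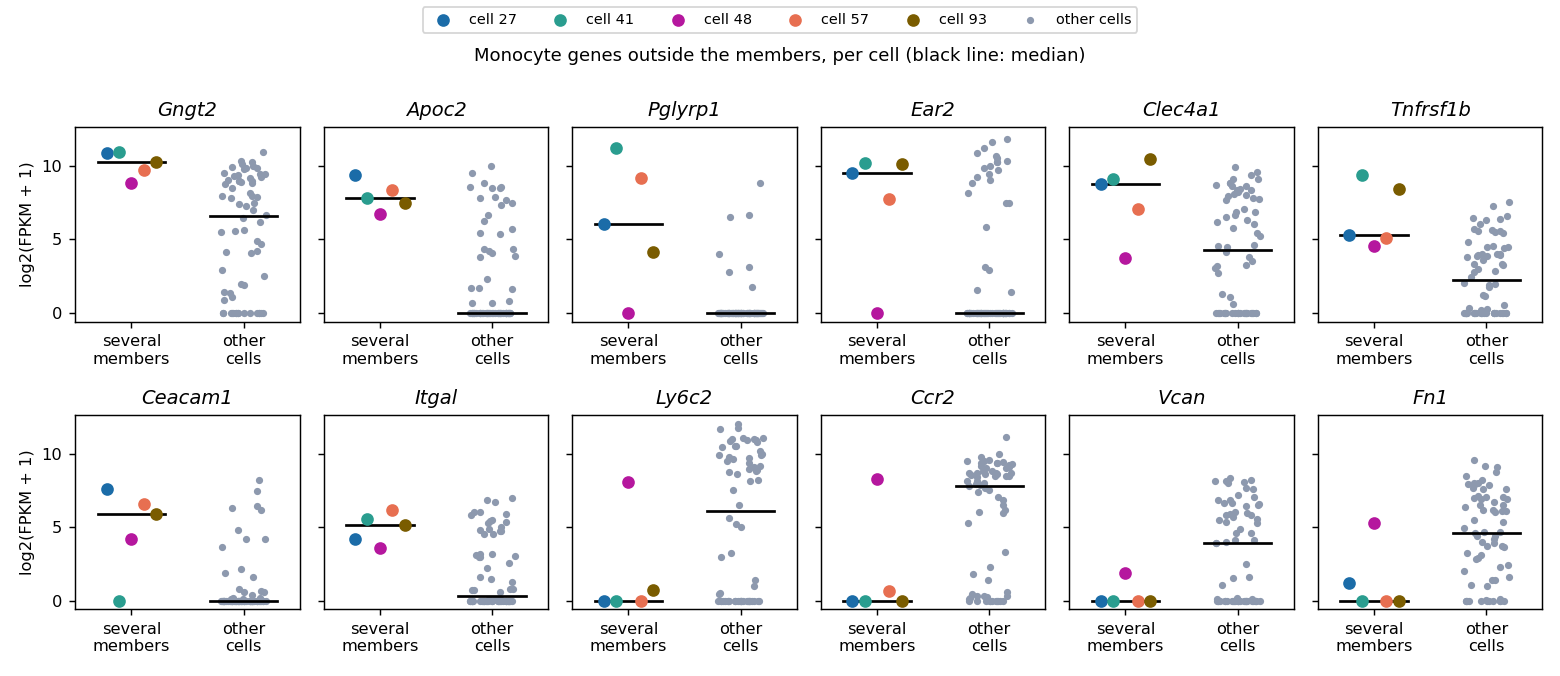
Levels of 12 monocyte genes as log2(FPKM + 1), with black lines at the medians. The 5 cells with several members and none of Cdh5, Cldn5 and Ramp2 detected are at the left of each panel, coloured by cell. The other 68 cells are at the right, in grey. The 8 non-classical monocyte genes shown are those past the size rule, of 21 on the list. Ly6c2, Ccr2, Vcan and Fn1 are classical monocyte genes at 1.24 FPKM or less in cells 27, 41, 57 and 93. The first 3 of these were chosen after their values were seen. Other classical monocyte genes are not shown, among them Plac8, at 462 to 4083 FPKM in the 5 cells. Mgst1 and S100a4, at 164 and 256 in cell 27, are not shown either.

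Classical monocyte genes were few in 4 of the 5 cells. Of 12 such genes, cells 27, 41, 48, 57 and 93 held 5, 1, 11, 4 and 2, a median of 4 in the 5 cells, against 9 in the other 68 (0 to 12). Without cell 48, the most was 5. After thinning, with a gene counted at 3 or more fragments, the median was 3 in the 5 cells and 9 in the others. Vcan, a matrix proteoglycan of classical monocytes, was at 0 in 4 of the 5 cells and at 2.68 in cell 48, and was detected in 39 of the others. Plac8 went against the list with 1516, 1225, 2332, 4083 and 462 FPKM, against a median of 523 and detection in 44 of the others. With Plac8 included, the summed FPKM of the list ran from 465 to 6161 in the 5 cells and from 0 to 17329 in the others. Low counts were not limited to these cells, since 23 of the other 68 also held at most 5 classical monocyte genes. Of those 23, 12 held at least 7 alveolar macrophage genes and 11 did not, and 8 of the 11 held at least 2 C1q chains. These 11 cells held 3 to 13 of the 21 further non-classical monocyte genes (median 7). They held at most 2 members, which the choice of cells fixed.

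Of 7 alveolar epithelial genes, Sftpc was detected in 2 of the 5 cells (48 and 57) and in 0 of the other 68, and Ager in cell 48. C1qb and C1qc were at 0 in all 5 and C1qa reached 0.31, while Apoe was detected in all 5, from 7.80 to 2285 FPKM. Of 14 alveolar macrophage genes, 2 to 4 were detected, among them Ear2, Ear1 and Fabp4, and Siglec5, Marco, Fabp1, Krt79 and Plet1 were at 0. Fabp4, a fatty acid carrier that capillary endothelium also makes, was at 98.5 in cell 48, 434 in cell 57 and 1235 in cell 93, and was detected in 10 of the other 68. Of 12 dendritic cell genes 0 to 2 were detected, and Flt3 and Zbtb46 were at 0. Of 10 neutrophil genes 1 or 2 were detected, Csf3r in all 5, and S100a8 and S100a9 were at 0. Csf3r was at 157 in cell 27 and 135 in cell 48, but near the detection limit in cells 41 (1.66), 57 (1.07) and 93 (1.07). Of 9 muscle genes and 5 platelet genes, 0 were detected, and of 12 lymphoid genes only Cd3d was detected, at 1.05 in cell 93. Ptprc was detected in all 5 cells, from 18.05 to 701, and Csf1r from 46.7 to 69.7 in 4 cells and at 150 in cell 48, whereas Emr1 was detected in 3 of the 5, from 1.97 to 29.9. Of 10 housekeeping genes, 7 to 10 were detected in the 5 cells and 5 to 10 in the others.

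By a rule of size, a mean log2(FPKM + 1) higher by at least 3 in the 5 cells with detection in at least 75% of them, 56 of 11868 genes detected in any cell were higher (0.472%). With the same difference downwards and detection in 75% of the other cells, 57 genes were lower (0.48%). Fewer genes were detected in the 5 cells, with a median of 1875 against 2312 in the others. The part of this in the lower genes was not tested. Of the 7 members, 5 were among the higher genes, Treml4, Spn, Ace, Emr4 and Cd300e, which the choice of cells fixed. Of the 21 further non-classical monocyte genes, 8 were higher and 0 lower, with a median difference of 2.31 over the list, beside -0.15 over all detected genes. The 8 were Pglyrp1, Apoc2, Gngt2, Ear2, Tnfrsf1b, Ceacam1, Clec4a1 and Itgal. Of the 21, only Cebpb, Clec4a3 and Gngt2 were detected in 75% of the other cells. The rest could not be called lower, so the 0 says little about them. Of the 12 classical monocyte genes, 1 was higher (Plac8) and 1 lower (Fn1), with a median difference of -2.80. Among these 12, Fn1 and Mgst1 alone were detected in 75% of the other cells. Chil3 (-4.35), Ccr2 (-3.95) and Ly6c2 (-3.55) differed by more than Fn1 (-3.15) but could not be called lower. The rule carries no test, and it rests on 5 cells with no replicate mouse. Without cell 48, 85 genes were higher, 53 of them among the 56, and 91 lower, 55 of them among the 57. Without cell 41, 85 genes were higher, 41 of them among the 56, and 45 were lower, 37 of them among the 57. With a cell left out, fewer cells met the 75% condition on higher genes, so both settings also loosened the rule. Fcgr4, detected in 3 of the 5 cells, entered without cell 48. Of the list genes past the rule, Itgal and Fn1 did not pass it without cell 41.

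Outside the members and the list, the largest differences upwards were those of Lair1 (5.07), a collagen-binding inhibitory receptor, AF251705 (5.04), Pik3ap1 (4.76), an adaptor of phosphoinositide 3-kinase, Nupr1 (4.75), a stress-response regulator, Emc2 (4.65), Ndufa9 (4.60), a subunit of respiratory complex I, and Ncf1 (4.58), a subunit of the phagocyte NADPH oxidase. Lair1 was at 118, 45.1, 10.3, 313 and 190 FPKM in cells 27, 41, 48, 57 and 93, and was detected in 20 of the other 68. Ncf1 was at 0.17, 878, 147, 101.8 and 150, and was detected in 25 of the others. The largest differences downwards were those of S100a10 (-5.86), Ier3 (-5.26), Vim (-5.07), Lgals3 (-5.00) and H2afz (-4.98), followed by Atp5o, Oaz1-ps, Lilrb4, Sec11c and Cstb. The annexin partner S100a10 was at 754 in cell 48 and at most 0.84 in the other 4, with a median of 544 in the other 68. Vim, the intermediate filament vimentin, was detected in 68 of the other 68 cells with a median of 1193, and was at 417, 16.9, 653, 2.91 and 0.73 in the 5. Reads of Oaz1-ps, a pseudogene, may be shared with its parent gene, so its level is uncertain.

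The genes with the pattern most like the members were ranked by Pearson's r over the 73 cells between their log2(FPKM + 1) and the mean of the 6 members other than Nr4a1, among 7682 genes detected in at least 5 cells. The first 10 were Ets1 (0.72), Dusp16 (0.68), Pglyrp1 (0.66), Smpdl3b (0.62), Pram1 (0.59), Nfatc2ip (0.58), Pik3ap1 (0.55), Gfpt1 (0.54), Kpna4 (0.53) and Gch1 (0.48). The points share 1 mouse and many values of 0. Ets1 was detected in 6 cells, with 34.3 FPKM in cell 57 and 33.9 in cell 93, and Dusp16 in 10, with 263 and 226 in the same cells. Cells 2, 38 and 54, which held endothelial transcripts, also held Ets1, at 1.08, 12.99 and 1.48. Without these cells Ets1 was detected in too few cells to be ranked, and 7 of the 10 genes stayed in the first 10. There r was lower for Gfpt1 (0.48) and Gch1 (0.43) and higher for the other genes ranked. The 7 cells that held several members were chosen by the same genes, so r without them is no independent check. Without them, 4 of the 10 genes (Ets1, Pram1, Nfatc2ip and Gfpt1) were detected in too few cells to be ranked, and r was -0.03 for Dusp16 and 0.08 for Pglyrp1.

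Nr4a1 did not follow the other members over the cells. Its r with the mean of the other 6 was 0.02 (n = 73 cells), with the mean of 16 immediate early genes 0.33, with single genes of that list 0.02 (Nr4a3), 0.12 (Fos), 0.26 (Junb), 0.28 (Nr4a2) and 0.30 (Egr1), and with the log2 of mouse fragments -0.09. Its median was 51.5 FPKM in the 5 cells and 27.8 in the other 68, and the ranges of 0.75 to 255 and 0 to 602 overlapped. The highest levels were 602 in cell 34, which also had the highest Emr4, and 412 in cell 14. For Nr4a1, cell 93 ranked 6 of 73 from the top, and cell 27, with 6 members, ranked 56. The mean log2(FPKM + 1) of the immediate early genes had a median of 4.48 in both sets, from 2.99 to 5.05 in the 5 cells and from 1.34 to 6.76 in the others. Within that list Ier3 was at most 2.49 FPKM in the 5 cells, against a median of 143 in the others, whereas Dusp1, a phosphatase of the same early response, had a median of 633 in the 5 cells and 155 in the others. Nr4a3, a close relative of Nr4a1, was at 0 in all 5 cells and detected in 3 of the others. Nr4a2 was detected in 3 of the 5 cells and 41 of the others.

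**Figure D5:**
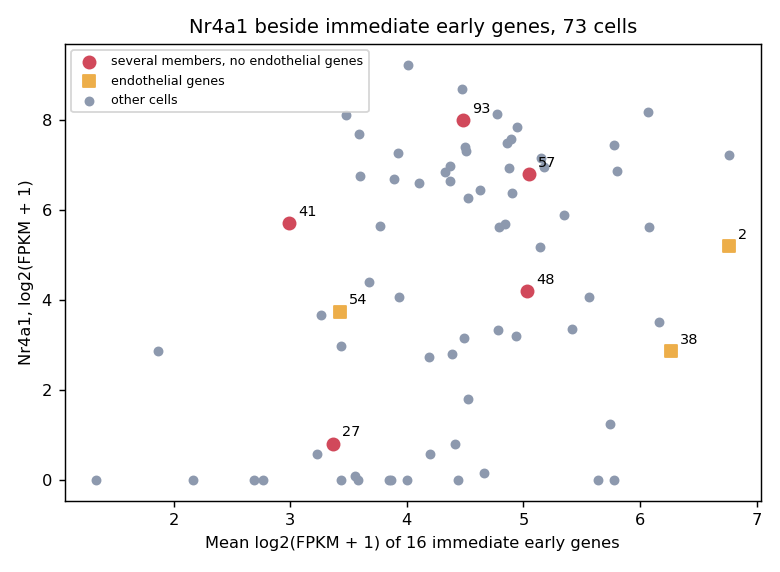
Level of Nr4a1 against the mean level of 16 immediate early genes, both as log2(FPKM + 1), in 73 cells. Red marks the 5 cells with several members and none of Cdh5, Cldn5 and Ramp2 detected. Yellow marks the 3 cells with at least 2 of these genes. The 5 cells run from 0.75 FPKM of Nr4a1 in cell 27 to 255 in cell 93, within the range of the other cells.

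Eno3 has a close relative in Eno1, the enolase of most tissues, with which reads could be shared. Eno1 was detected in 42 cells with a median of 24.6 FPKM over all 73. In cells 57 and 27, Eno3 was at 152 and 1.65 while Eno1 was at 0.000573 and 0.000401. Eno3 was at 108 and Eno1 at 13.02 in cell 54, and in cell 64 they were at 15.02 and 1.53. In cell 93 Eno3 was at 62.5 and Eno1 higher at 136, and in cell 38 Eno3 was at 13.004 and Eno1 higher at 41.4. Of 9 muscle genes, 0 were detected in these 6 cells.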

How the data were processed

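Single cells were captured on a Fluidigm C1 chip, polyadenylated RNA was amplified with the SMARTer kit and the cDNA was made into Nextera XT libraries, as the labels' protocols state. Read handling used TopHat2 2.1.0, CASAVA 1.8, Cuffnorm and Cufflinks 2.2.1 on build mm10, per the submitters' processing notes. The gene annotation, the use of strand and any filter on cells are not given in the sources used here. In the FPKM table, deposited values were normalised per cell by the authors. The deposited count table holds a signal, fragments that the authors' tools had scaled per cell, and not raw counts, so no count model was fitted. Its smallest step per cell was taken as 1 fragment, and 99.6% of 99841 values from 0.5 to 20 steps were whole to within 0.1. Reads carry no molecular identifiers, so fragments are not independent molecules. Spike-in rows (100) were taken out, and 0 columns were left without a cell.

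Values were handled in Python 3.11.15 with numpy 2.4.6, pandas 2.3.3, scipy 1.17.1 and matplotlib 3.10.9. A gene was detected at FPKM of 1 or more, a cell held several members at 3 or more of 7, and had endothelial transcripts at 2 or more of 3 genes. No doublet caller was run, since the cells are few, and whether each held 1 cell was not tested. Members and lists were chosen with earlier results of these data known, and the alveolar epithelial and the sort gene lists were added after the values were seen. Named are the members, the 3 endothelial genes, up to 6 genes of each list by mean level in the 5 cells and defining genes at 0, the 15 genes most different upwards and the 10 downwards, and the 10 most like the members. Cx3cr1, Itgax, Fcgr4, Cd274, Bcl2, Vcan, Ly6c2, Ccr2, Tnfrsf1b, Itgal, Ceacam1, Nr4a2, Nr4a3, Ier3 and Dusp1, and the single cells outside the 7, were chosen after their values were seen. Promoter sequences are from RefSeq (GRCm38.p6), and all 7 members matched, Emr4 under Adgre4.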

Additional observations from a re-analysis of the deposited data

How the results depend on the processing

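No paired analysis was possible because the cells form 1 group from 1 mouse. The same 5 cells held several members without endothelial transcripts after rescaling to 1 total, with 4 members required, and without Nr4a1 or Ace. So they did in the count table and after thinning, where 3 or more fragments replaced the FPKM limit. With 2 members, 24 cells held several, 21 of them without endothelial transcripts, and the difference in other non-classical monocyte genes was 0, against 5. Any value above 0 added cells 35 and 71. The difference in classical monocyte genes was -5, and ran from -6 to -1 over its alternatives. Genes past the size rule, 56 higher and 57 lower, numbered 139 and 100 with a pseudocount of 0.1, 144 and 118 at a difference of 2, 85 and 91 without cell 48, and 85 higher without cell 41, the last 2 settings being chosen after seeing the data. These counts therefore depend on the settings and on single cells. Without the 7 cells, which were chosen by the members' own values, 0 of the 10 genes most like the members stayed in the first 10, and 4 could not be ranked. Any other cause of these changes was not tested. For 0 of 73 cells the limit of 3 cells is 4.11%, and transcripts present may have been missed at FPKM of 0.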
